A study of Arabidopsis thaliana with 60 samples.

Results

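IAA20, IAA29 and IAA30 are 3 Aux/IAA genes of Arabidopsis thaliana, and their transcripts were followed on 60 Affymetrix ATH1 arrays of seedlings given hormone inhibitors or other chemicals. The members were the probe sets that name only IAA20 (AT2G46990), IAA29 (AT4G32280) or IAA30 (AT3G62100) in the platform annotation: 1 probe set each, so 3 of the 22746 probe sets on the array that are not controls. All groups were wild-type seedlings of the accession Col-0, grown for 7 days and extracted whole, and no transgene or mutant was used. There were 30 groups of 2 arrays: 27 treated groups covering 18 compounds, and 3 mock groups, 1 for each of the series that the labels call F1, F2 and G.

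In series F1 seedlings were treated for 3 h at 10 µM with CHX (cycloheximide), MG132, AVG, AgNO3, 2,4,6T, PCIB, TIBA, NPA, propiconazole, uniconazole, paclobutrazol, Brz220, Brz91, prohexadione, daminozide, ibuprofen or salicylic acid, and with PNO8 at 1 µM. In series F2 they were treated for 12 h with propiconazole, uniconazole, paclobutrazol, prohexadione, Brz220 or Brz91 at 10 µM, and with PNO8 at 1 µM. Series G held Brz220 at 3 µM and PNO8 at 10 µM, both for 3 h. Each treated group was set against the mock of its own series. Nothing in the labels tells whether a group's 2 arrays stand for separate cultures, so each p-value reflects array-to-array spread that may be technical only. RNA came from whole seedlings, so fewer cells that express a gene and less RNA per cell cannot be told apart.

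Aux/IAA proteins are repressors that bind the ARF transcription factors of the auxin pathway. In the presence of auxin most of them are held by the TIR1/AFB receptors, marked with ubiquitin and degraded by the proteasome, which frees the ARFs; many Aux/IAA genes are themselves switched on by ARFs and so form a feedback loop. IAA29 is known as an auxin-responsive member that is also induced in shade through the PIF transcription factors. IAA20 and IAA30 are a closely related pair that lacks the degron through which other members are recognised, and both are known as targets of the ARF MONOPTEROS in the developing vascular tissue. Several Aux/IAA transcripts are known to accumulate when protein synthesis is blocked.

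Values are MAS5 intensities rescaled so that every array had the same trimmed mean. Differences are on a log2 scale with a pseudocount of 126 added to the intensity, which understates the change of dim probe sets; each is given ± SE, with n = 2 arrays per group. The test was limma fitted over all 60 arrays and the 17301 probe sets kept by a filter on low signal, and a difference is said to be called where its Benjamini-Hochberg adjusted p over those probe sets lies under 0.05. Between the replicates of each group r was 0.959 to 0.981 over probe sets, and no pair of arrays held identical values. The ratio of the 3′ to the 5′ actin probe sets lay between 1.22 and 1.89 (median 1.49) and was highest in replicate 1 of the F1 mock. As whole seedlings should, the arrays carried signal of shoot and of root genes: RCA, a photosynthesis gene, lay between 2895 and 38882, and the root hair expansin EXPA7 between 272 and 2415.

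All 3 transcripts were dim in most of these seedlings. The level of IAA20 stood between the 5.39th and the 43.1st percentile of its array (median 21.4), that of IAA29 between the 2.78th and the 90.1st (median 35.4) and that of IAA30 between the 9.61st and the 84.5th (median 22.6). The filter asked for a level above the 40th percentile on at least 2 arrays, which IAA29 met on 16 arrays, IAA20 on 3 and IAA30 on 3. For IAA30 those 3 were both CHX arrays and 1 TIBA array, so this member entered the test through the groups in which it was high. For IAA20 they were single arrays of 3 groups: replicate 1 of Brz91 and of prohexadione at 3 h, and replicate 2 of the 12 h mock. No detection call was used here, so whether the dimmest values stood above background is not known.

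Over the 27 comparisons with mock, IAA29 was called higher in 1 (CHX) and lower in 2 (AVG and AgNO3), IAA30 was called higher in 1 (CHX), and IAA20 was called in none. Over all probe sets and the same 27 comparisons together, 1.86% of tests were called higher and 2.5% lower. At an unadjusted limma p under 0.05 there were 4 comparisons for IAA20, 4 for IAA29 and 2 for IAA30. Such values were common over all 17301 probe sets, from 543 in Brz220 at 3 µM to 9812 in CHX. The members' counts at this cut are therefore not read as a result about them. The plot of all arrays shows CHX alone far to the right for IAA29 and IAA30.

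**Figure D1:**
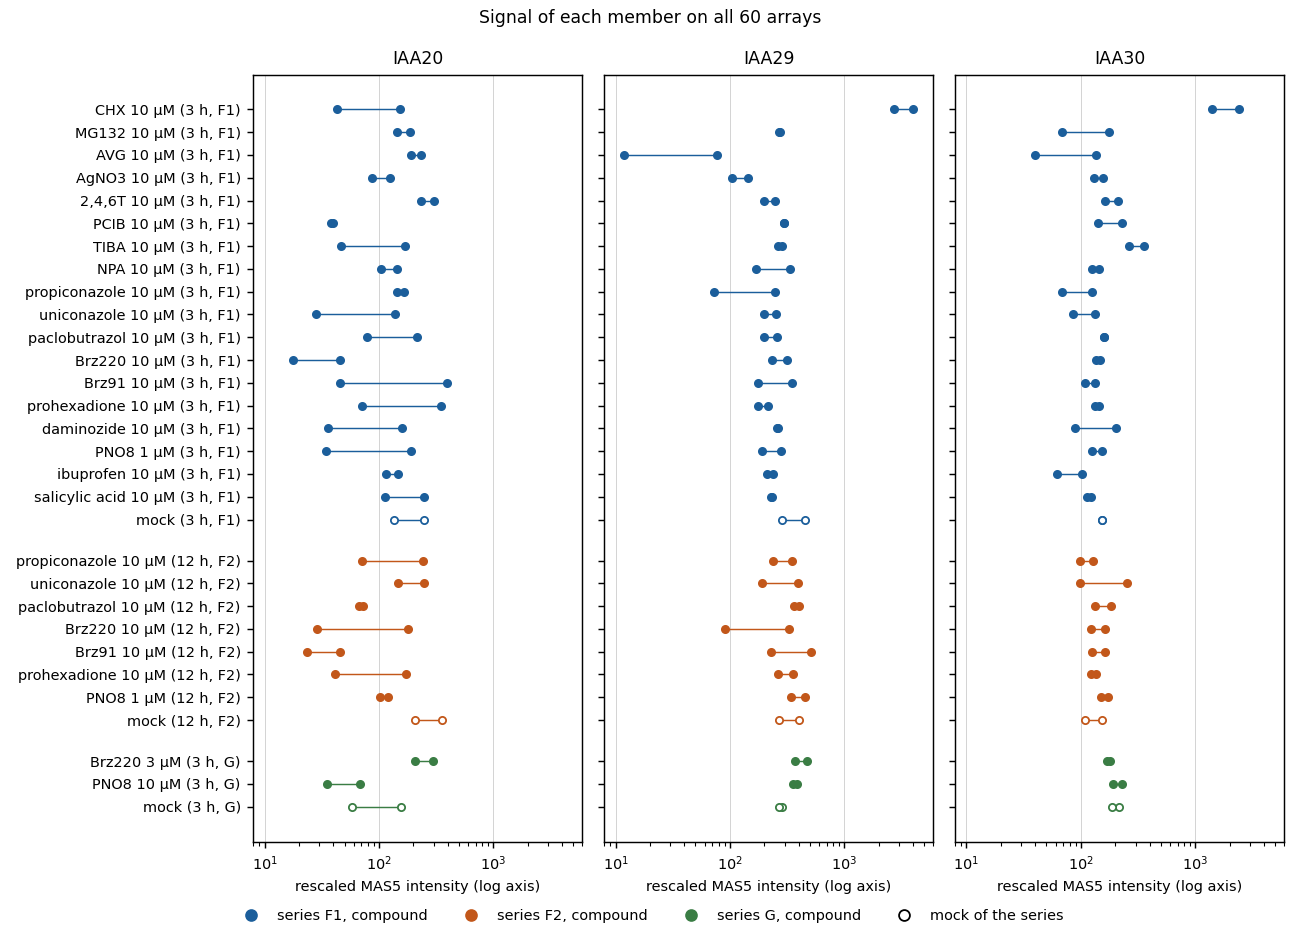
Rescaled MAS5 intensity (log axis) of IAA20, IAA29 and IAA30 on each of the 60 arrays; a row is a group of 2 arrays joined by a line, filled points are compounds and open points the mock of the series. Both CHX arrays lie above 1400 for IAA29 and IAA30, while IAA29 falls to 11.9 and 77.4 in AVG.

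CHX, a blocker of protein synthesis, raised IAA29 and IAA30 and gave no called change of IAA20. IAA29 had intensities of 3997 and 2725 in CHX-treated seedlings, against 449 and 283 in mock seedlings (replicates 1 and 2). Both CHX arrays stood above both mock arrays and above every other array of the experiment, where the highest value was 508. The difference was 2.82 ± 0.31 (95% interval 2.20 to 3.44, limma adjusted p = 3.03e-10), and within the 2 replicate numbers it was 2.84 and 2.80. On the intensity scale, without the pseudocount, CHX over mock was 8.91-fold in replicate 1 and 9.64-fold in replicate 2.

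IAA30 had intensities of 2415 and 1404 in CHX-treated seedlings, against 152 and 153 in mock seedlings. The groups did not overlap, and the next highest IAA30 value on any array was 353. The difference was 2.82 ± 0.26 (95% interval 2.30 to 3.34, limma adjusted p = 3.47e-12); replicate 1 showed the larger difference. The intensity ratio of CHX to mock was 15.9 in replicate 1 and 9.15 in replicate 2. IAA30 passed the filter only with its CHX arrays counted, so it was tested because it was high there. Without the filter it was also called.

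IAA20, the close relative of IAA30, had 154 and 43.4 in CHX-treated seedlings, against 249 and 134 in mock seedlings. The arrays of the groups overlapped. The difference was -0.52 ± 0.43 (95% interval -1.40 to 0.36, limma adjusted p = 0.334). The contrast between IAA30 and IAA20 was not tested as such.

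CHX moved a large part of the transcriptome: 18.2% of all probe sets were called higher and 33.6% lower, and the median of all differences was -0.21. Relative to that median the differences of IAA29 and IAA30 were both 3.03. They ranked 685th and 686th from the top among 17301 probe sets, so 96.0% of probe sets had a smaller or more negative difference. The histogram shows both in its right tail, with the 4 other measured Aux/IAA genes near its centre.

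**Figure D2:**
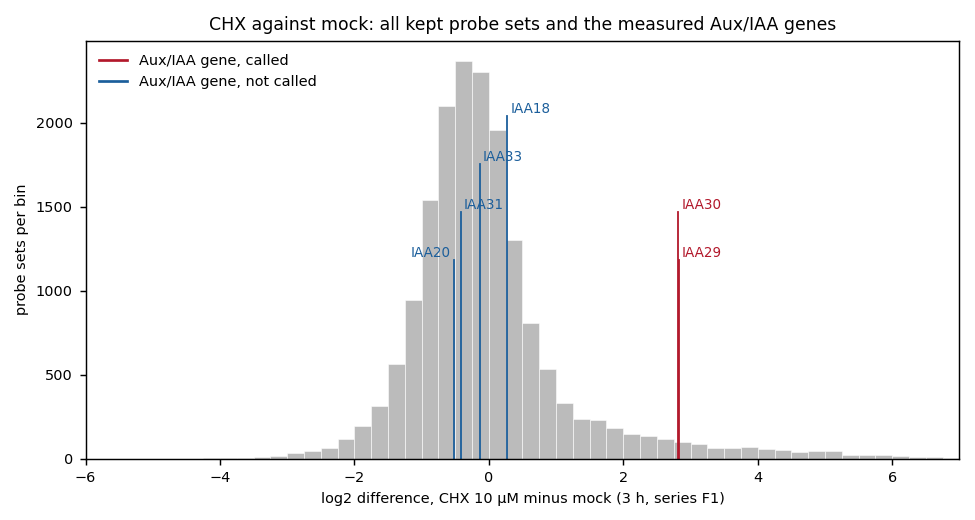
Histogram of the log2 difference, CHX minus mock at 3 h, for all 17301 kept probe sets, with vertical lines at the 6 measured Aux/IAA genes (red for called, blue for not called). IAA29 and IAA30 stand together at 2.82, and IAA20 (-0.52), IAA31, IAA33 and IAA18 lie in the bulk.

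AVG, an inhibitor of ACC synthase in the ethylene pathway that is also known to block the aminotransferase step of auxin synthesis, lowered IAA29. IAA29 had 11.9 and 77.4 in AVG-treated seedlings, against 449 and 283 in mock seedlings. Both AVG arrays lay below both mock arrays, and the group had the lowest mean level of IAA29 among the 30 groups. The difference was -1.53 ± 0.31 (95% interval -2.15 to -0.91, limma adjusted p = 0.00747), the 17th most negative of all probe sets, with -2.06 in replicate 1 and -1.01 in replicate 2.

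Few probe sets were called in AVG: 0.249% lower and 0.0983% higher. IAA30 had 39.8 and 136 in AVG-treated seedlings, against 152 and 153 in mock seedlings, a difference of -0.42 ± 0.26 with a limma adjusted p of 0.750. Replicate 1 of AVG was the lowest IAA30 array of all 60, while replicate 2 lay close to mock. IAA20 had 189 and 235 in AVG-treated seedlings, against 249 and 134 in mock seedlings, a difference of 0.11.

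AgNO3, a source of silver ions that block ethylene perception, also lowered IAA29. IAA29 had 104 and 144 in AgNO3-treated seedlings, against 449 and 283 in mock seedlings, again with no overlap. The difference was -0.96 ± 0.31 (95% interval -1.58 to -0.34, limma adjusted p = 0.0175), with -1.32 in replicate 1 and -0.60 in replicate 2. In this comparison 13.9% of probe sets were called lower and 10.8% higher, so a call was far more common than with AVG. The median of all differences was -0.11, and relative to it the IAA29 difference was -0.85.

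IAA30 had 155 and 129 in AgNO3-treated seedlings, against 152 and 153 in mock seedlings (difference -0.06). IAA20 had 87.3 and 124 in AgNO3-treated seedlings, against 249 and 134 in mock seedlings (difference -0.44 ± 0.43, limma adjusted p = 0.537). Neither was called.

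Both calls of IAA29 as lower rested on few arrays. Replicate 1 of the F1 mock held the highest IAA29 value of series F1 outside CHX (449), and this array also had the highest actin 3′ to 5′ ratio, 1.89; its part in the result was not tested beyond leaving it out. Without it the IAA29 difference was -1.29 in AVG (limma adjusted p = 0.160) and -0.71 in AgNO3 (limma adjusted p = 0.198). Without AVG replicate 1 it was -1.25 (limma adjusted p = 0.321), and without AgNO3 replicate 1 it was -0.85 (limma adjusted p = 0.139). With the arrays of both 3 h mocks (F1 and G) as the control, a setting chosen after the data were seen, the differences were -1.40 in AVG (limma adjusted p = 0.00164) and -0.82 in AgNO3 (limma adjusted p = 0.0153). The G mock itself differed from the F1 mock, with 558 probe sets called higher and 319 lower. This pooled control therefore mixes in a difference between series, and its smaller p in AVG is not added support.

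The same mock entered all 18 comparisons of series F1, and IAA29 was lower than mock in 17 of them, with a median difference of -0.44. The 34 treated F1 arrays other than CHX had a median IAA29 intensity of 236 (11.9 to 352), against 449 and 283 in the F1 mock. The G mock, also taken at 3 h, had 285 and 267. IAA20 was lower than the same mock in 16 of the 18 comparisons (median difference -0.30) and IAA30 in 13 (median -0.08). The plot of differences shows these shared shifts.

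**Figure D3:**
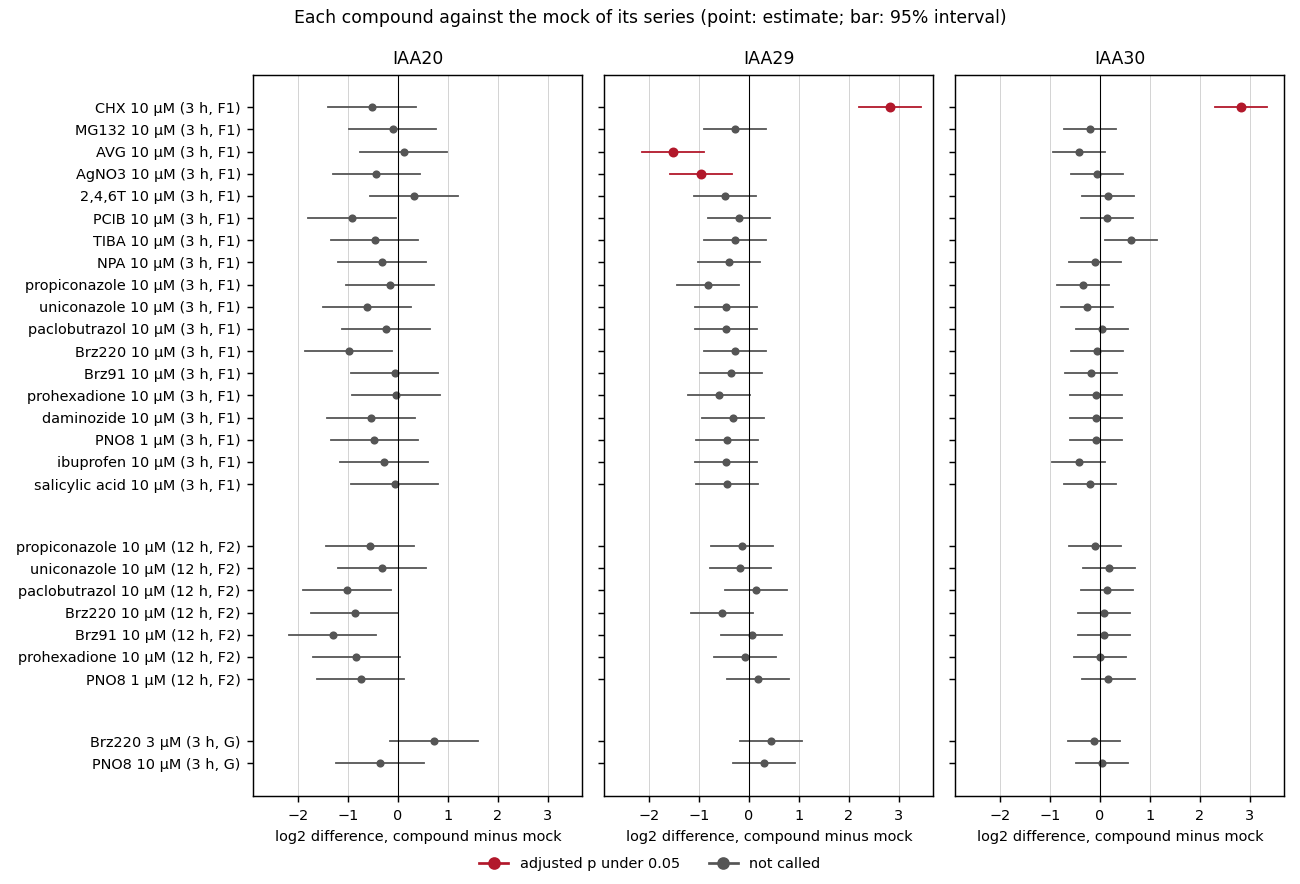
Log2 difference, compound minus mock of the series, for IAA20, IAA29 and IAA30 in the 27 comparisons; points are estimates, bars 95% intervals, red marks an adjusted p under 0.05. The called values are CHX for IAA29 and IAA30 (2.82 both), and AVG (-1.53) and AgNO3 (-0.96) for IAA29.

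TIBA, NPA, PCIB and 2,4,6T gave no called change of a member. TIBA and NPA inhibit polar auxin transport, PCIB is an antiauxin, and 2,4,6T is given by the labels under that name. TIBA called 5.75% of probe sets higher and 6.12% lower, NPA 0.0347% and 0.11%, 2,4,6T 0.798% and 0.705%, and PCIB 0.11% and 0.0289%; with NPA and PCIB hardly any probe set was called, so the absence of a call there says nothing particular about the members.

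IAA30 had 261 and 353 in TIBA-treated seedlings, against 152 and 153 in mock seedlings. Both TIBA arrays lay above both mock arrays, and TIBA was the second highest group for IAA30 after CHX. The difference was 0.63 ± 0.26 (95% interval 0.10 to 1.15) with a limma adjusted p of 0.123, so it did not pass the test. NPA, the other transport inhibitor, had IAA30 at 144 and 126; TIBA minus NPA was 0.72 ± 0.26 (95% interval 0.20 to 1.24, limma adjusted p = 0.0734).

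IAA29 had 262 and 285 in TIBA, 334 and 169 in NPA, 199 and 249 in 2,4,6T and 299 and 295 in PCIB, against 449 and 283 in mock seedlings. Its differences ran from -0.47 in 2,4,6T to -0.19 in PCIB. IAA30 had 164 and 212 in 2,4,6T and 140.3 and 227 in PCIB, against 152 and 153 in mock seedlings, differences of 0.17 and 0.14. For IAA29 and IAA30 the 95% intervals in these 4 compounds included 0, except for IAA30 in TIBA.

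IAA20 had 300.5 and 231 in 2,4,6T and 38.0 and 39.9 in PCIB, against 249 and 134 in mock seedlings. Both PCIB arrays lay below both mock arrays, and the difference was -0.92 ± 0.43 (95% interval -1.80 to -0.04, limma adjusted p = 0.879), which was not called. 2,4,6T minus PCIB was 1.24 ± 0.43 (95% interval 0.36 to 2.12) with a limma adjusted p of 0.546. IAA20 had 46.2 and 168 in TIBA and 105 and 144 in NPA, and these arrays spanned the lower mock value.

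MG132, an inhibitor of the proteasome that degrades Aux/IAA proteins, gave no called change of the 3 transcripts. IAA29 had 270.0 and 272 in MG132-treated seedlings, against 449 and 283 in mock seedlings (difference -0.29). IAA30 had 177 and 68.8, against 152 and 153 (difference -0.20), and IAA20 had 143 and 186, against 249 and 134 (difference -0.11). The 95% intervals reached 0.62 to each side of the estimate for IAA29, 0.52 for IAA30 and 0.88 for IAA20, and the adjustment over all probe sets left larger differences than these uncalled in other comparisons. MG132 called 0.381% of probe sets higher and 0.624% lower.

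Growth retardants and azoles were also without a called change of a member, in comparisons that called very little: over the 13 of series F1 and F2 together, 0.111% of tests were called higher and 0.0885% lower. Their lack of a call therefore says nothing particular about the members. Propiconazole, uniconazole and paclobutrazol are azoles, Brz220 and Brz91 are brassinazoles that inhibit brassinosteroid synthesis, and prohexadione and daminozide act late in gibberellin synthesis. At 3 h IAA29 had 247 and 73.3 in propiconazole, 253 and 198 in uniconazole, 259 and 199 in paclobutrazol, 317 and 234 in Brz220, 175 and 352 in Brz91, 175 and 216 in prohexadione and 257 and 265 in daminozide, against 449 and 283 in mock seedlings. The most negative of these was propiconazole, at -0.83 ± 0.31 (limma adjusted p = 0.405), with replicate 2 far below replicate 1.

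IAA30 at 3 h had 68.0 and 125 in propiconazole, 84.6 and 133 in uniconazole, 159 and 159 in paclobutrazol, 148 and 135 in Brz220, 108 and 133 in Brz91, 134 and 143 in prohexadione and 88.8 and 201 in daminozide, against 152 and 153 in mock seedlings. The differences lay between -0.34 in propiconazole and 0.03 in paclobutrazol. IAA20 at 3 h had 165 and 142 in propiconazole, 28.3 and 138 in uniconazole, 78.4 and 215 in paclobutrazol, 45.5 and 17.7 in Brz220, 392 and 45.2 in Brz91, 345 and 71.2 in prohexadione and 158 and 35.6 in daminozide, against 249 and 134 in mock seedlings. Brz91 shows how far the IAA20 arrays of 1 group could lie apart, with the highest of all 60 arrays in replicate 1.

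At 12 h IAA29 had 346 and 239 in propiconazole, 189.8 and 397 in uniconazole, 398 and 365 in paclobutrazol, 327 and 90.1 in Brz220, 508 and 228 in Brz91, 358 and 262 in prohexadione and 449 and 339 in PNO8, against 404 and 269 in the 12 h mock. The differences ran from -0.55 in Brz220 to 0.18 in PNO8 and had both signs. IAA30 at 12 h had 97.9 and 126 in propiconazole, 98.2 and 251 in uniconazole, 184 and 132 in paclobutrazol, 123 and 164 in Brz220, 161 and 125 in Brz91, 123 and 135 in prohexadione and 150.3 and 173 in PNO8, against 108 and 153 in the 12 h mock. All 7 IAA30 differences lay between -0.10 and 0.19.

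IAA20 at 12 h was below mock in all 7 comparisons, which share the 2 mock arrays. It had 70.9 and 242 in propiconazole, 247 and 148 in uniconazole, 67.3 and 72.0 in paclobutrazol, 180.5 and 28.9 in Brz220, 45.8 and 23.6 in Brz91, 40.9 and 173 in prohexadione and 102 and 121 in PNO8, against 205 and 355 in the 12 h mock. That mock had the highest mean IAA20 level of the 30 groups. The lowest p of IAA20 against a mock was that of Brz91 at 12 h, where the difference was -1.31 ± 0.43 and the limma adjusted p was 0.288.

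The remaining compounds were PNO8, ibuprofen and salicylic acid. IAA29 had 278 and 189 in PNO8 at 1 µM, 239 and 209.9 in ibuprofen and 234 and 228 in salicylic acid, against 449 and 283 in the F1 mock. IAA30 had 153 and 125 in PNO8, 61.3 and 103 in ibuprofen and 122 and 114 in salicylic acid, against 152 and 153. Ibuprofen had the lowest mean IAA30 level of the 30 groups, at a difference of -0.43 ± 0.26 (limma adjusted p = 0.552). IAA20 had 34.3 and 189 in PNO8, 115 and 146 in ibuprofen and 113 and 246 in salicylic acid, against 249 and 134.

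In series G, IAA29 was above the G mock in both groups. It had 373 and 472 in Brz220 at 3 µM and 382 and 355 in PNO8 at 10 µM, against 285 and 267 in the G mock, differences of 0.44 and 0.30 ± 0.31. Neither was called. No array overlapped with mock. The share of all probe sets without overlap was not taken, so this is not read as a result about IAA29. Brz220 at 3 µM called 5 probe sets higher and 1 lower of 17301, so the lack of a call there says nothing particular. IAA30 had 179 and 169 in Brz220 and 229 and 192 in PNO8, against 215 and 186 in the G mock. IAA20 had 299 and 207 in Brz220 and 68.9 and 35 in PNO8, against 58.5 and 156 in the G mock. Its differences were 0.72 and -0.36 ± 0.43, neither called, and the Brz220 arrays did not overlap with mock.

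The groups were also put in order of their mean level for each member, which describes these values and tests nothing. Some neighbours in that order had arrays that did not overlap, though none did for IAA20. For IAA29 these were CHX over Brz220 at 3 µM (a gap of 2.65 on the log2 scale), MG132 over daminozide (0.04) and AgNO3 over AVG (0.57). A lack of overlap does not tell groups apart: the MG132 gap was far smaller than the SE of 0.31 of an IAA29 difference. The share of neighbours without overlap over all probe sets was not taken, so these pairs are not read as a result about the members. For IAA30 the neighbours without overlap were CHX over TIBA (2.19) and TIBA over PNO8 at 10 µM (0.36). Outside the CHX group IAA20 ranged from 17.7 to 392 (median 136), IAA29 from 11.9 to 508 (median 264) and IAA30 from 39.8 to 353 (median 141) over 58 arrays.

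No member was called between related compounds at the same dose and time (11 pairs). None was called between the responses at 12 h and 3 h (7 compounds), between 2 doses (Brz220 and PNO8) or between mocks (2 comparisons). Many of these comparisons called almost no probe set, so the lack of a call there says nothing particular about the members. Examples are propiconazole minus uniconazole at 3 h and Brz220 at 10 µM minus 3 µM, each with 0 higher and 0 lower of 17301. More were called in TIBA minus NPA (909 higher, 760 lower), salicylic acid minus ibuprofen (705, 359) and mock G minus mock F1 (558, 319). PNO8 at 10 µM minus 1 µM called 253 higher and 125 lower. For the 12 h response minus the 3 h response, IAA29 ran from -0.27 to 0.69, IAA30 from 0.08 to 0.44 and IAA20 from -1.24 to 0.31. For Brz220 at 10 µM minus 3 µM, IAA20 differed by -1.71 ± 0.61 (limma adjusted p = 0.999), and dose and series changed together there. The mocks of F2 and G differed from that of F1 by -0.08 and -0.27 for IAA29, by -0.13 and 0.23 for IAA30 and by 0.35 and -0.45 for IAA20.

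Of the 29 Aux/IAA genes listed, 7 had a probe set naming 1 gene, and 6 of these passed the filter. CHX raised 2 of the 6 (IAA29 and IAA30) and lowered none, with a median difference of 0.07, against -0.21 over all probe sets, of which 18.2% were called higher and 33.6% lower. IAA30 is among the 6 only because its CHX arrays were high, so this count and median are not read as a result about the family. AVG lowered 1 of 6 (median -0.33, against -0.02 over all probe sets, of which 0.249% were called lower), and AgNO3 lowered 2 of 6 (median -0.47, against -0.11 over all, of which 13.9% were called lower). The second gene lowered by AgNO3 was IAA31, a close relative of IAA20 and IAA30, which had 69.6 and 143 in AgNO3-treated seedlings, against 261 and 325 in mock seedlings (difference -0.86 ± 0.31, limma adjusted p = 0.0337). IAA18 (1218 to 2113 over all arrays) and IAA33 (86.6 to 422) were called in no comparison, and IAA34 did not pass the filter.

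Other auxin-linked genes were set beside the members; their counts in CHX stand against the 18.2% of all probe sets called higher and 33.6% called lower. GH3 enzymes join auxin or other hormones to amino acids, and of 5 measured GH3 genes CHX raised 3, namely GH3.3 by 4.94, GH3.1 by 4.56 and GH3.5 by 2.23, and lowered GH3.17 (-0.78); the median was 2.23. Both measured LBD factors rose in CHX: LBD29 by 1.72 and LBD16 by 1.27, both known from lateral root formation. WAG2, a kinase linked to auxin transport, rose by 1.22, and of the shade-linked genes HAT2 rose by 1.31 and FHL, a helper of phytochrome A import, by 2.83. LHW, a regulator of vascular development, fell (-0.77), and the 2 measured auxin synthesis genes, YUC2 and YUC6, were not called.

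In AVG the called gene of these lists besides IAA29 was GH3.3, which had 19.5 and 13.3 in AVG-treated seedlings, against 800.3 and 487 in mock seedlings (difference -2.40 ± 0.36, limma adjusted p = 8.77e-05). In AgNO3 GH3.3 went the other way from IAA29: it had 1844 and 3754 in AgNO3-treated seedlings, against 800.3 and 487 in mock seedlings, and rose by 1.88. GH3.17 (-1.33), LBD29 (-1.19) and WAG2 (-0.82) fell with AgNO3, as did the root hair expansins EXPA7 (-1.83) and EXPA18 (-2.61), which were taken as root markers. Both expansins were also called lower in TIBA, 2,4,6T, salicylic acid and PNO8 at 10 µM, where IAA29 was not called. EXPA18 fell by 0.94 in CHX, where EXPA7 was not called. RCA, a photosynthesis marker, was not called in CHX, AVG or AgNO3. Only 2 of 12 matched root genes and 1 of 9 matched shoot genes of the marker lists had a probe set naming 1 gene. Whether a change in the share of root cells had a part in the IAA29 result in AgNO3 was not tested.

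GH3.3 was also called higher in TIBA (4.83), NPA (2.99), 2,4,6T (2.25), salicylic acid (2.36) and PNO8 at 10 µM (3.05), where no member was called; these 5 values were chosen after they were seen. Salicylic acid called 4.69% of probe sets higher and 3.65% lower, and PNO8 at 10 µM 6.25% and 5.99%. In TIBA, GH3.3 had 16912 and 26907, against 800.3 and 487 in mock seedlings, a level near the 20752 and 25435 of CHX. IAA29 in the same TIBA arrays differed from mock by -0.28 and IAA30 by 0.63. These comparisons, other than PNO8 at 10 µM, share the F1 mock, and the contrast between the genes was not tested.

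**Figure D4:**
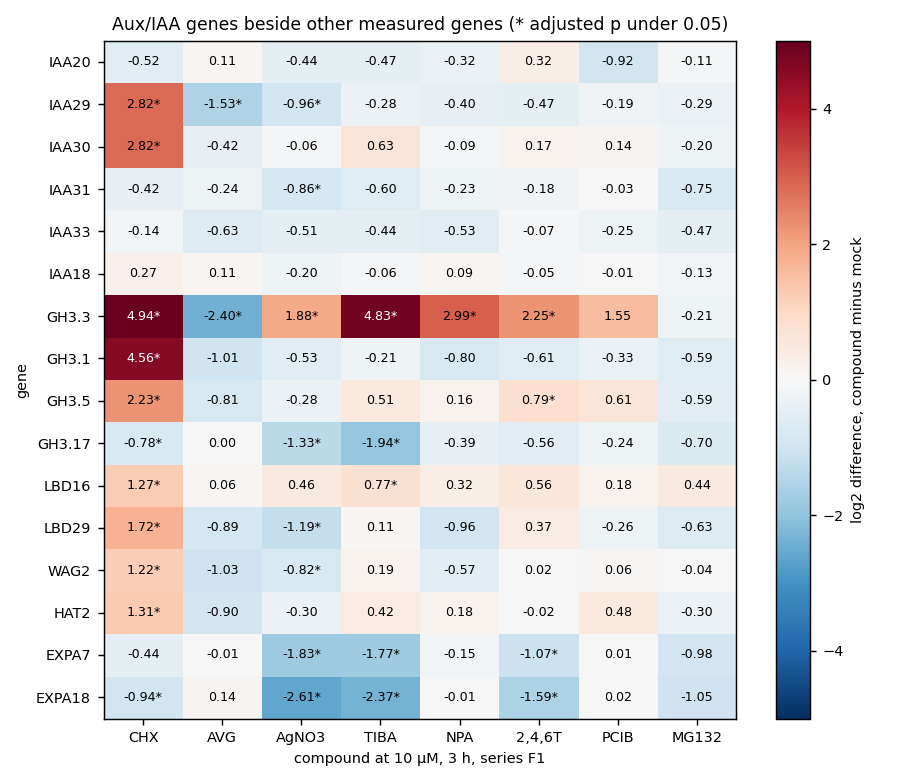
Log2 difference, compound minus mock, at 10 µM and 3 h in series F1 for the 6 measured Aux/IAA genes and 10 other genes; a star marks an adjusted p under 0.05. Among the 8 compounds shown, GH3.3 is called in CHX, AVG, AgNO3, TIBA, NPA and 2,4,6T, IAA29 in CHX, AVG and AgNO3, and IAA30 in CHX.

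The likeness of other genes to each member was taken as Pearson's r of mean log2 levels over the 19 groups of series F1, for 9600 probe sets that name 1 gene. The groups share a platform and the F1 scaling, and no test was made. IAA29 was most like AT5G52050 (the efflux carrier DTX50, r = 0.938), AT5G52740 (0.937), AT4G33060 (the cyclophilin CYP57, 0.934), AT2G27320 (0.932) and AT5G18210 (0.930). IAA30 was most like AT5G59450 (0.971), AT5G52050 (0.970), AT5G42290 (0.966), GH3.1 (0.961) and AT3G04220 (0.961). Of the 9600 probe sets, 61 had r over 0.9 with IAA29, 254 with IAA30 and 0 with IAA20. The genes named for IAA29 and IAA30 are therefore the top of a long list of near ties. IAA20 had no match as high with CHX included: the highest values were 0.614 for NUB, 0.611 for AT5G18540, 0.599 for AT1G22670, 0.592 for AT3G62930 and 0.588 for AT4G24630.

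The high values rested on the CHX group. Without it, over 18 groups, r of the 5 genes most like IAA29 was 0.533, 0.496, 0.440, 0.417 and 0.423, and r of the 5 most like IAA30 was 0.693, 0.708, 0.658, 0.599 and 0.597. For the 5 most like IAA20 it was 0.604, 0.611, 0.587, 0.579 and 0.616, all above those of IAA29. The lower values of IAA20 therefore set it apart only where CHX was included. IAA29 and IAA30 themselves had r = 0.926 with CHX and 0.461 without it, and Spearman's rho was 0.526 with CHX and 0.443 without it. Spearman's rho with IAA29 was 0.618 for AT5G52050, and with IAA30 it was 0.577 for AT5G59450 and 0.704 for AT5G52050. The scatter of the 2 members shows CHX alone in its upper right corner.

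**Figure D5:**
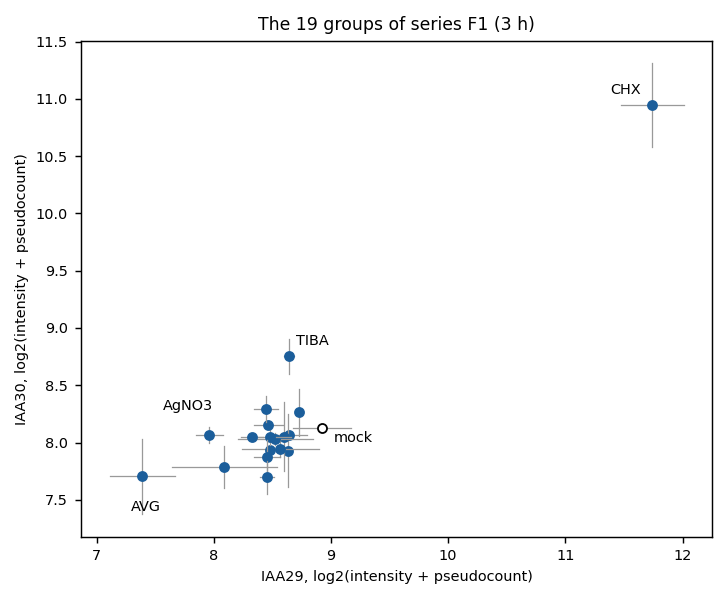
Mean log2(intensity + pseudocount) of IAA30 against IAA29 for the 19 groups of series F1; lines join the 2 arrays of a group on each axis, and the open point is the mock. CHX stands apart from all other groups, AVG and AgNO3 lie at the low end of IAA29, and TIBA is the second highest group for IAA30.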

How the data were processed

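Whole seedlings were measured on 60 ATH1 arrays. The deposited values are probe set intensities on a linear scale, which the authors made with MAS5 (version not given in the sources used here), per the submitters' processing notes. The deposited 2% trimmed mean was constant within a replicate number of a series and differed between these 6 sets, so each array was rescaled to a common 2% trimmed mean of 1316. Probe sets above the 40th percentile of their array on at least 2 arrays were kept (17301 of 22746), and log2(intensity + 126) was fitted with limma 3.58.1 in R 4.3.3: 1 mean per group, all 60 arrays, 30 residual degrees of freedom, a variance prior with an intensity trend, and Benjamini-Hochberg adjustment within each comparison. The pseudocount is the median of the arrays' 20th percentiles. The number of arrays limits the precision.

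Names came from the platform annotation, an old table: 13513 probe sets named 1 gene, 503 several and 8730 were not listed; 13436 matched the RefSeq TAIR10.1 gene table, from which only names were taken. The members, gene lists and tests were chosen with earlier results of these data known. Genes named are the 3 members, other measured Aux/IAA genes, called members of the other lists (at most 4 per list) where a member was called, and the 5 genes most like each member; GH3.3 in TIBA, NPA, 2,4,6T, salicylic acid and PNO8 was added. The auxin lists of ARF, TIR1/AFB, SAUR, xylem, and procambium and phloem genes had 0 measured members. On simulated data for CHX with 17301 probe sets, 65% of the genes changed by 1 log2 unit and 99% of those changed by 2 were called, beside 16 false calls. The simulation changed 100 probe sets by each size under normal noise, whereas the real CHX comparison called 3148 higher and 5813 lower. These rates therefore need not hold for the real comparison or for the dim members. Alternatives were the intensities as deposited, quantile normalization, no pseudocount or a smaller one, no filter, the replicate number in its series as a block, single series, both 3 h mocks as the control, and each array left out in turn.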

Additional observations from a re-analysis of the deposited data

How the results depend on the processing

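The counts of called comparisons of IAA20, IAA29 and IAA30 were the same under all 9 alternatives to the fit, and only leaving out 1 array changed one of them: IAA29 was called lower in 2 comparisons, and in 0 to 2 with 1 array left out (0 without replicate 1 of the F1 mock, 1 without AVG replicate 1 and 1 without AgNO3 replicate 1). Over these alternatives and left-out arrays, the IAA29 difference in CHX lay between 2.56 and 3.21 and that of IAA30 between 2.46 and 3.59. The IAA29 difference in AVG lay between -3.55 (no pseudocount) and -1.25, and in AgNO3 between -1.54 (no pseudocount) and -0.71. IAA30 in TIBA was not called under any of them (adjusted p between 0.0858 and 0.495). No called value changed its direction.

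Same-numbered arrays of different groups deviated together only weakly: the correlation of their deviations had a median of 0.137 in F1 (-0.113 to 0.291 over 171 pairs of groups), 0.168 in F2 and 0.0096 in G, so the numbers were not taken to pair the samples. With the replicate block the members' calls were the same (IAA29 in AVG, adjusted p = 0.00333), and GH3.5 (-0.81, adjusted p = 0.00465) and WAG2 (-1.03, adjusted p = 0.0475) were then called lower in AVG. Among all probe sets AVG had 17 higher and 43 lower, against 30 and 59 with the replicate block, 2 and 17 on the intensities as deposited, 9 and 28 with series F1 alone, and 177 and 240 with both 3 h mocks as the control. AgNO3 had 1873 higher and 2413 lower, against 1173 and 889 as deposited. Most values of all 3 members lay below the 40th percentile of their array, where small changes in signal could not be seen with 2 arrays per group.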
